A study of Mus musculus with 2 samples.

Results

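Type 2 conventional dendritic cells marked by Cd209a were chosen by a rule on UMI counts from single-cell RNA profiles of 4T1 mammary tumours, a UMI count being the number of distinct RNA molecules of a gene caught in a cell. A cell needed 500 UMIs or more from 200 genes or more, of which mitochondrial genes gave no more than 20%. It also had to hold at least 1 UMI of Cd209a, at least 20 UMIs in 10000 (CP10K) of the MHC class II genes H2-Ab1 and H2-Aa together, and under 5 CP10K of the macrophage genes C1qa, C1qb and C1qc together. The last condition was 0 UMIs of Xcr1 and Clec9a (type 1 dendritic cells), Cd3e (T cells), Siglech (plasmacytoid dendritic cells) and Fscn1 (mature dendritic cells). The rule found 99 of 14709 kept cells, 28 in the control and 71 in the knockout library. The levels of the genes in the rule are therefore descriptions and support nothing.

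Conventional dendritic cells take up antigen in tissue, cut it into peptides and show these on MHC molecules to T cells. The type 1 branch depends on the transcription factors IRF8 and BATF3 and is known for showing antigen to CD8 T cells. The type 2 branch depends on IRF4, carries SIRPA and CD11b and is known for priming CD4 T cells. Monocytes that enter an inflamed tissue can take on genes of the type 2 branch, so the boundary between the branch and monocyte-derived cells is known to be hard to draw from RNA. CD209a is a C-type lectin, a sugar-binding receptor of the DC-SIGN family, and MGL2 and CLEC10A are galactose-binding lectins of the same cells.

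The study asks what Kindlin-2, which attaches to the inner ends of integrins and helps talin to switch them on, does for immune evasion of breast cancer. It has 2 groups with 1 droplet library each (10x Genomics, 3′ ends). The control library is from tumours of 4T1 cells, a mouse mammary carcinoma line, with genotype WT and a control sgRNA. The knockout library is from tumours of 4T1 cells with genotype K2-KO and a K2 sgRNA. Both kinds of cells had been placed in the mammary fat pads of female mice of a strain that the labels spell BLB/c, and the mice, not the 4T1 line, gave rise to the dendritic cells. Tumours were taken at 150 mm3, and after a digestion of 45 min the living cells were sorted by mCherry signal. The labels do not give the mice's own genotype or age, how many tumours were pooled, which clone of knockout cells was used or in what proportion the sorted fractions were loaded. With 1 library per group there is no test between knockout and control. Each such difference describes these libraries, with a 95% interval for counting error alone.

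The control library held 214163620 UMIs in 8038 barcodes and the knockout library 180774106 in 7250. The libraries shared 13 barcode sequences, none of them in a Cd209a cell, and a doublet caller marked none of the 99 cells. Fermt2, which encodes Kindlin-2, had 1 UMI in the control Cd209a cells and 0 in the knockout cells. Cells marked by the summed keratin genes Krt8 and Krt18 and Epcam, without the leukocyte gene Ptprc (keratin-marked cells below), had 41.3 and 17 CPM (UMIs per 1000000) of Fermt2, control and knockout. A count of 3′ ends need not fall where a guide cuts, so it does not check the knockout. Fermt3, the family member of blood cells, had 143 and 168 CPM in the Cd209a cells. Per cell, the Cd209a cells held a median of 11754 UMIs in the control (948 to 28143) and 15889 in the knockout library (1953 to 39941), and in sum 364265 and 1175474. In this text, paired values are given in the order control, knockout.

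Promoter sequences are shown for Cd209a, which chose the cells, and for its neighbours Cd209d and Cd209e, which were not in the rule and were higher in these cells than in the 3 other classes compared below. All 3 genes lie on the minus strand of chromosome 8, Cd209a itself at chr8:3743397-3748984 (GRCm38). The sequences are RefSeq's for GRCm38.p6, written 5′ to 3′ on the gene's strand, and end where the first transcript of the GENCODE annotation begins, at chr8:3748985-3749234, chr8:3878556-3878749 and chr8:3854310-3854536. Capitals mark a match to GGAA, any 2 bases and then GAAA, the composite element of PU.1 with IRF4 or IRF8, here read on the opposite strand:
Cd209a: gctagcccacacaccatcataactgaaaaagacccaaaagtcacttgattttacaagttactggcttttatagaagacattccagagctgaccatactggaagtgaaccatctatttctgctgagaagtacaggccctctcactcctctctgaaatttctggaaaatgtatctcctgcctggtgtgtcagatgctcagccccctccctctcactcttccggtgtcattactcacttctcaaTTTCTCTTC
Cd209d: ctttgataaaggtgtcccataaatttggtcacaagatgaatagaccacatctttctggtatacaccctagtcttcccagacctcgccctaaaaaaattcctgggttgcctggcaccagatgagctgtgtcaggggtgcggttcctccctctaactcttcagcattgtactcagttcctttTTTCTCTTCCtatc
Cd209e: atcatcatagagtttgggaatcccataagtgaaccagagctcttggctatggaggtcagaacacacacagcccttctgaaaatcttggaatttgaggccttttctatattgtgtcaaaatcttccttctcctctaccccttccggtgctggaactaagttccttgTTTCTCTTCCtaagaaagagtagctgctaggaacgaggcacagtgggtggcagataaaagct
The Cd209d match lies 70 to 61 and the Cd209e match 85 to 76 bases before the RefSeq start, which lies downstream of the end of the sequences shown for these 2 genes. In Cd209a the element runs across the start: 9 of its 10 bases end the sequence shown and 1 follows. Searched on both strands, 892 of 32851 RefSeq windows of 300 bases, from 250 before to 50 after the start, held this element (2.72%), and that of Mgl2 did not. Aligned over 250 bases, Cd209d and Cd209e were identical at 57.5% of columns, Cd209a and Cd209d at 48.7%, and Cd209a and Cd209e at 50.9%. A match is a description of letters, not a site of binding.

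The label was checked against markers that the rule did not use. Mgl2 stood at 1194 and 1057 CPM, Clec10a at 280.0 and 239.9 CPM, Irf4 at 124 and 115 CPM, Sirpa at 236 and 273 CPM and Itgam, which encodes CD11b, at 159 and 189.7 CPM. Of 19 markers of the type in the matrix, which include Cd209a of the rule, 18 had a UMI in the control and 17 in the knockout cells. At least 1 UMI of Mgl2 or Clec10a was found in 25 of 28 (89.3%) and 62 of 71 cells (87.3%). At least 1 UMI of the conventional dendritic cell genes Flt3, Zbtb46, Kmo or Dpp4 was found in 23 of 28 (82.1%) and 60 of 71 cells (84.5%). Flt3 is the receptor for the growth factor on which these cells depend, and Zbtb46 is a transcription factor that marks their lineage.

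Monocyte genes were present in the same cells. The 24 monocyte markers summed to 3945 and 4524 CPM, with 22 and 23 of them detected, and ranged over single cells from 3.15 to 165 CP10K in the control (median 37.8) and from 5.08 to 265 CP10K in the knockout library (median 37.4). A UMI of Fcgr1, Cd14 or Ly6c2 was found in 20 of 28 and 54 of 71 cells. Most cells held both kinds of gene: 18 control cells (64.3%) and 45 knockout cells (63.4%) had a UMI of the 4 dendritic and of the 3 monocyte genes. Only dendritic genes were seen in 5 and 15 cells, only monocyte genes in 2 and 9, and neither in 3 and 2. How far free RNA in the droplets added to these counts was not tested.

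Markers of lymphocytes and fibroblasts were scarce, and those of macrophages and other dendritic cells were not. The 15 T cell markers, of which the rule holds Cd3e at 0, summed to 2.75 and 6.81 CPM, with 14 and 9 of them at 0. The 12 NK cell markers summed to 16.5 and 22.1 CPM, the 12 fibroblast markers to 13.7 and 19.6 CPM and the 14 B cell markers to 43.9 and 78.3 CPM. The 16 tumour epithelial markers reached 302 and 268 CPM, of which Cdh1, which encodes E-cadherin, gave 156 and 155 CPM. The 24 macrophage markers include 3 that the rule limits, and the other 21 summed to 1430.3 and 1408 CPM. The 25 markers of mature dendritic cells summed to 2031 and 1900 CPM, the 18 of type 1 to 964 and 1329 CPM and the 17 of plasmacytoid dendritic cells to 969 and 923 CPM, although the rule holds Fscn1, Xcr1, Clec9a and Siglech of these lists at 0. The 15 neutrophil markers summed to 593 and 427 CPM, of which Il1r2, also on the list of type 2 markers, gave 546 and 383 CPM.

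A UMI of Cd209a was rare in other cells and more frequent in those of the knockout library. It was found in 0 of 417 control T cells, where a count of 0 allows a share of up to 0.881% (exact upper limit), and in 1 of 693 knockout T cells (0.144%), at a median of 8465 and 8502 UMIs per T cell. Of keratin-marked cells, 1 of 3715 (0.0269%) and 7 of 2317 (0.302%) had one, a log2 ratio of 3.49 (0.53 to 8.98). Of cells with at least 5 CP10K of C1q, 6 of 1685 (0.356%) and 15 of 1319 (1.14%) had one, a log2 ratio of 1.68 (0.23 to 3.33). The part of such UMIs in the shares of Cd209a cells given below was not tested. Cells at the edge of the rule show what it cuts. The Cd209a cells with 1 UMI of the gene (6 and 14 cells) had 725 CPM of Mgl2 and 56.9 CPM of Clec10a, those with 2 to 5 UMIs (9 and 18 cells) 982 and 130 CPM, and those with over 5 UMIs (13 and 39 cells) 1252 and 366 CPM, both libraries summed. Cells that met the rest of the rule with no Cd209a UMI (225 and 405 cells) had 138 CPM of Mgl2 and 20.03 CPM of Clec10a, with 462 CPM of the monocyte gene Ly6c2 and 2372 CPM of Apoe. Of the chemokine gene Ccl17 the order ran the other way among Cd209a cells: 1551 CPM at 1 UMI, 977 CPM at 2 to 5 UMIs and 341 CPM above. The order of the first 2 groups rests on single cells. In the group with 1 UMI, 1 control cell held 222 UMIs of Ccl17, and without it this group would lie below the next. In the group with 2 to 5 UMIs, 1 knockout cell held 174.
Of 53 and 157 kept cells with a UMI of Cd209a, 43 and 108 met the MHC class II limit, and 40 and 99 of these also the C1q limit. Few cells lay close to these limits: 1 control and 1 knockout cell lay between 20 and 40 CP10K of MHC class II, 0 and 3 cells with the rest of the rule met lay between 10 and 20, and no cell lay between 5 and 10 CP10K of C1q. Of the 40 and 99 cells that met every limit but the last, a UMI of Clec9a left out 6 and 12, of Cd3e 3 and 8, of Siglech 4 and 7 and of Fscn1 4 and 8.

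The Cd209a cells made up 28 of 7747 kept control cells (0.361%, exact 95% interval 0.240 to 0.522) and 71 of 6962 kept knockout cells (1.02%, 0.797 to 1.28). The share was 2.82-fold higher in the knockout library, a log2 ratio of 1.5 (0.85 to 2.18). Among cells with a UMI of Ptprc it was 0.750% and 1.81%, a log2 ratio of 1.27. Among cells within the MHC class II and C1q limits it was 5.74% and 9.31%, 1.62-fold higher (log2 0.70, 0.05 to 1.38). These shares depend on how the mCherry fractions were sorted and loaded, which the labels do not give. Keratin-marked cells made up 48.0% and 33.3% of the libraries, and their part in the difference was not tested.

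The other dendritic classes and monocytes also made up a larger share of the knockout library. Type 1 dendritic cells (at least 2 UMIs of Xcr1 and Clec9a, same MHC class II and C1q limits) were 29 and 86 cells, 0.374% and 1.24%. Mature dendritic cells (a UMI each of Fscn1 and Ccr7) were 11 and 20 cells, 0.142% and 0.287%. Their log2 ratio was 1.02, with an interval that includes 0 (-0.11 to 2.22). Monocytes (at least 2 UMIs of Ly6c2 and at least 20 CP10K of Lyz2, under 5 CP10K of C1q and no MHC limit) were 75 and 190 cells, 0.968% and 2.73%. C1q macrophages made up 16.8% and 13.7%. Of the 3 dendritic classes together, the Cd209a cells made up 28 of 68 (41.2%) and 71 of 177 (40.1%), a log2 ratio of -0.04 (-0.69 to 0.65), so their share among dendritic cells was not distinguishable between the libraries at this number of cells.

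**Figure D1:**
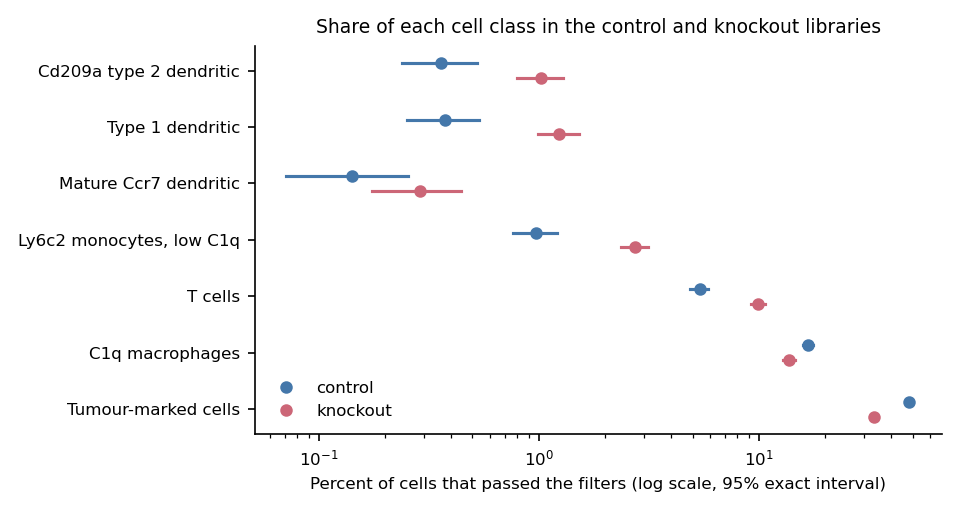
Share of kept cells (per cent, log axis) in each gated class, control and knockout library, with exact 95% intervals for counting error. The Cd209a cells stand at 0.361% and 1.02%, and type 1 dendritic cells at 0.374% and 1.24%.

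To see what sets the Cd209a cells apart, UMIs were summed per library and class and the 4 classes were compared with edgeR's quasi-likelihood test, with class and library as terms and Benjamini-Hochberg adjustment over 7609 genes. The 2 libraries, of different genotype, are the replicates here. The library term takes up what differs between them in all classes alike. The spread, with 3 residual degrees of freedom, therefore measures only how far the class differences vary between the libraries. It does not measure the spread between tumours. The classes were gated on the same counts that are compared, so genes that travel with a gate gene follow from the gate, and the adjusted p-values measure only how well the libraries agree. A gene counted as higher or lower at an adjusted p under 0.05 and at least 2-fold, with genes used by any gate left out. Against type 1 dendritic cells 293 genes were higher (3.85% of those tested) and 266 lower (3.50%), against mature dendritic cells 503 (6.61%) and 591 (7.77%), and against monocytes 395 (5.19%) and 549 (7.22%). These shares over all genes stand beside each list count between classes below. Higher than all 3 other classes were 22 genes (0.289%), and lower than all 3 were 12 (0.158%).

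Lectins led the genes higher in Cd209a cells than in all 3 classes. Clec10a, at 280.0 and 239.9 CPM, had 13.1 and 19.2 CPM in type 1 dendritic cells, 25 and 14 CPM in mature dendritic cells and 19.6 and 17.3 CPM in monocytes. Its log2 differences by edgeR were 3.81 ± 0.32 (adjusted p = 0.000149), 3.69 ± 0.36 (adjusted p = 0.00023) and 3.8 ± 0.31 (adjusted p = 6.59e-05). Every Cd209a value of the gene lay above every other class in both libraries. Mgl2, its neighbour on chromosome 11 (chr11:70130329-70137550 and chr11:70156197-70170834 for Clec10a), had 166 and 85.4 CPM in type 1 dendritic cells, 88.9 and 186 CPM in mature dendritic cells and 4.52 and 10.8 CPM in monocytes. By edgeR its log2 difference was 3.15 ± 0.41 (adjusted p = 0.00122) against type 1 dendritic cells and 6.97 ± 0.52 (adjusted p = 4.78e-05) against monocytes. Mgl2 and Clec10a are close copies, as are the Cd209 genes, so the split of reads between copies is uncertain.

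Of the Cd209 family, Cd209d stood at 329 and 299 CPM in the Cd209a cells. It had 0 UMIs in type 1 dendritic cells, a difference of at least 235-fold against 3 counts over the class, 0 and 32.6 CPM in mature dendritic cells and 0 and 0.937 CPM in monocytes. Cd209e stood at 65.9 and 132 CPM in the Cd209a cells, with 1.87 and 2.26 CPM in type 1 dendritic cells, 0 UMIs in mature dendritic cells (at least 30.6-fold) and 0 and 1.41 CPM in monocytes. Cd209c, a further copy, had 7 and 28 UMIs. Cd209a, Cd209d and Cd209e are the genes whose start regions, shown above, hold the PU.1 and IRF element.
Another lectin gene, Clec4b1, was also higher than in all 3 classes, at 104 and 49.3 CPM against 0 UMIs in mature dendritic cells.

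The other genes higher than in all 3 classes have varied known roles. Il1r2, a decoy receptor that binds interleukin-1 without signalling, stood at 546 and 383 CPM against 307 and 147 CPM in type 1 dendritic cells, 233 and 116 CPM in mature dendritic cells and 64.8 and 64.2 CPM in monocytes. Cfp, which encodes properdin, the stabiliser of the alternative complement pathway, stood at 494 and 459 CPM against 178 and 127 CPM, 72.2 and 51.2 CPM and 167 and 203 CPM in the same order. Cyp7b1, an oxysterol hydroxylase, stood at 143 and 275 CPM against 0 and 3.96 CPM, 5.56 and 39.6 CPM and 0 and 1.41 CPM. Cdh1 was 3.08 ± 0.33 on the log2 scale above type 1 dendritic cells (edgeR, adjusted p = 0.000444) and 2.44 ± 0.31 above monocytes (adjusted p = 0.000686). Chl1, Gfra2, Lsamp, Cd7, Fcor, Galnt6, Slamf9, Cyp4f16, Tep1, Arl8b, Plxdc2, Fh1 and Eps8 complete the 22. The smallest difference among them that a gene kept against all classes was that of Eps8, 1.02 ± 0.26 against monocytes (edgeR, adjusted p = 0.026).

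Genes lower than in all 3 classes included a transcriptional regulator. Id2, an inhibitor of basic helix-loop-helix factors that the type 1 branch is known to need, stood at 178 and 180.4 CPM against 548 and 924 CPM in type 1 dendritic cells, 403 and 463 CPM in mature dendritic cells and 424 and 465 CPM in monocytes. Its log2 difference was -2.08 ± 0.25 against type 1 dendritic cells (edgeR, adjusted p = 0.000843). Inhba, which encodes a subunit of activin, stood at 2.75 and 3.4 CPM against 284 and 162 CPM in monocytes. Agap1, Txn1, Gm15056, Agpat3, Chst11, Pde4d, Airn, Plaat3 and AW112010 were also among the 12.

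**Figure D2:**
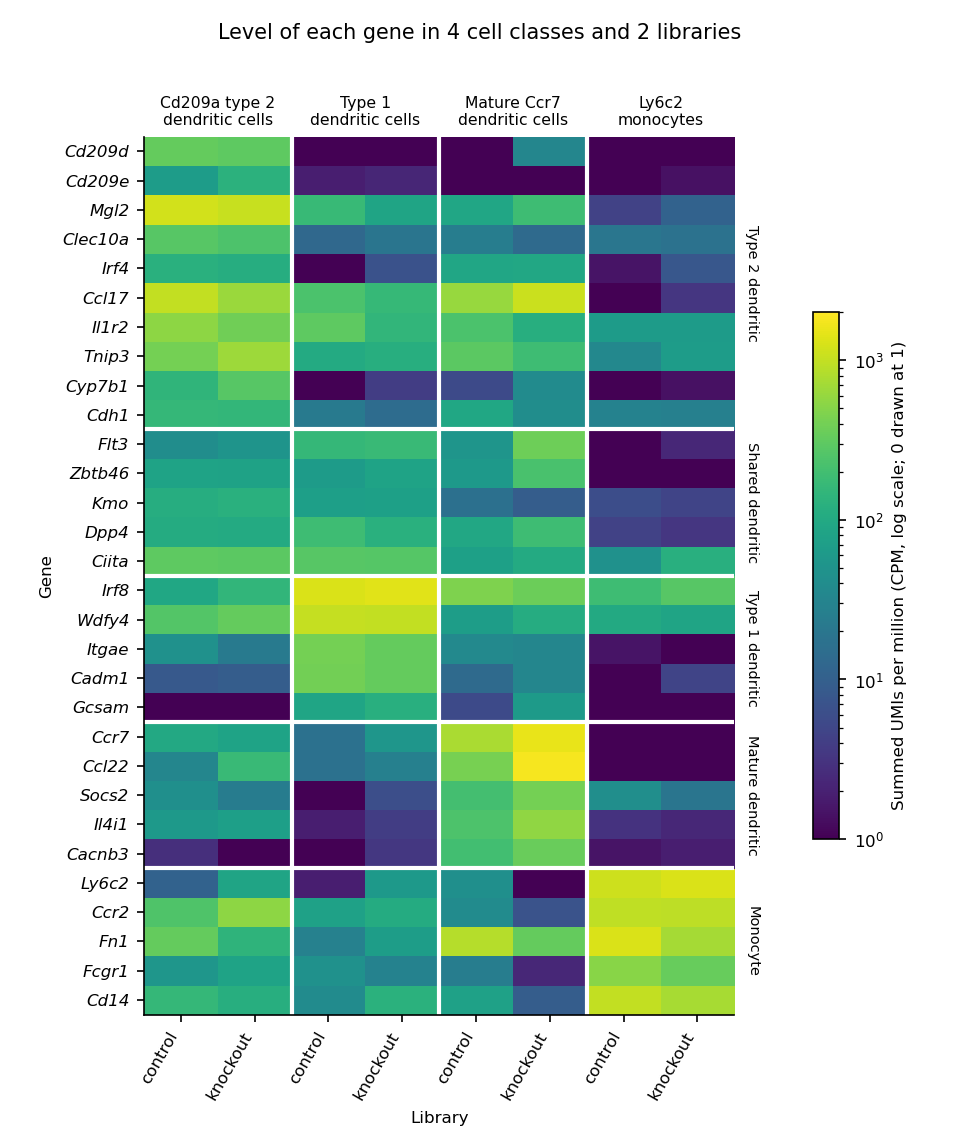
Levels (CPM, log colour scale, 0 drawn at 1) of 30 genes in 4 classes and 2 libraries; columns are classes by library and rows genes, some of them used by a class gate (Ccr7, Ly6c2). Clec10a, Mgl2, Cd209d and Cd209e are highest in the Cd209a columns of both libraries, and Irf8 in those of type 1 dendritic cells.

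Transcription factors separated the branches. Irf4, the factor of the type 2 branch, stood at 124 and 115 CPM against 0 and 6.79 CPM in type 1 dendritic cells, a log2 difference of 4.55 ± 0.54 (edgeR, adjusted p = 0.000737), and against 1.51 and 7.97 CPM in monocytes (4.31 ± 0.50, adjusted p = 0.000482). Mature dendritic cells, at 88.9 and 95.4 CPM, did not differ past the threshold (0.29 ± 0.41, edgeR adjusted p = 0.692). Irf8, the factor of the type 1 branch, ran the other way, at 93.3 and 149.7 CPM against 1293 and 1433 CPM in type 1 dendritic cells (-3.54 ± 0.27, edgeR adjusted p = 0.000149). Zeb2, a factor known to oppose the type 1 branch, was higher than in type 1 dendritic cells (1.36 ± 0.21, edgeR adjusted p = 0.00309) and lower than in monocytes (-1.71 ± 0.21, adjusted p = 0.000567). Of 56 dendritic cell transcription factors tested, 9 were higher and 5 lower than in type 1 dendritic cells, beside 3.85% and 3.50% of all genes tested.

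By list, of 15 type 2 markers tested, 10 were higher and 2 lower than in type 1 dendritic cells, 9 and 1 than in mature dendritic cells and 10 and 2 than in monocytes. Their median log2 differences were 2.02, 1.46 and 2.76, while the median of all genes tested lay between -0.02 and 0.00. Clec12a was among the exceptions, at 24.7 and 16.2 CPM against 91.7 and 85.4 CPM in type 1 dendritic cells. Of 16 type 1 markers, 14 were lower than in type 1 dendritic cells (median -3.57), among them Cadm1 (-5.44 ± 0.50), Itgae (-3.61 ± 0.32), Naaa (-2.37 ± 0.32) and Wdfy4 (-1.83 ± 0.26), a protein needed for cross-presentation. Of 21 mature markers, 19 were lower than in mature dendritic cells (median -3.36), among them the chemokine gene Ccl22 (-3.5 ± 0.32) and Il4i1 (-2.62 ± 0.33), an amino acid oxidase. Since the gates chose these classes by genes of the same lists, these counts are descriptions.

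Against monocytes the Cd209a cells were higher in the shared dendritic cell genes and lower in monocyte and macrophage genes. Of 18 shared genes, 14 were higher and 0 lower (median 2.68). Kmo, a tryptophan-pathway enzyme, stood at 113 and 123 CPM against 6.03 and 4.69 CPM (4.5 ± 0.35, edgeR adjusted p = 5.52e-05), and Dpp4 at 107 and 105 CPM against 4.52 and 3.28 CPM (4.82 ± 0.52, adjusted p = 0.00028). Zbtb46 stood at 82.4 and 80.8 CPM against 0 and 0.469 CPM, and Flt3 at 41.2 and 51 CPM against 0 and 2.34 CPM. Zfp366, the gene of DC-SCRIPT, a dendritic cell factor, stood at 143 and 160 CPM against 0 UMIs, at least 145-fold higher. Of 20 monocyte markers, 15 were lower and 0 higher (median -2.30). The Fc receptor gene Fcgr1 differed by -2.48 ± 0.39 (edgeR, adjusted p = 0.0022) and Plac8 by -1.61 ± 0.24 (adjusted p = 0.00161). Of 16 macrophage markers 10 were lower and 1 higher. Chil3 had 0 UMIs in the Cd209a cells and 131 and 84.4 CPM in monocytes, at least 49-fold lower. Ccr2, the receptor by which monocytes leave the marrow, lay between the classes, at 247 and 549.6 CPM against 977 and 941 CPM in monocytes and 78.6 and 108 CPM in type 1 dendritic cells.

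Presentation, uptake and chemokine genes were compared in the same way. H2-Eb1, an MHC class II chain not in the rule, did not differ past the threshold from type 1 dendritic cells, at 6624 and 4523 CPM against 5219 and 5243 CPM (0.04 ± 0.22, edgeR adjusted p = 0.96), and was higher than in mature dendritic cells (1.1 ± 0.23, adjusted p = 0.00823). Cst3, which encodes the protease inhibitor cystatin C, stood at 5158 and 3985 CPM against 18526 and 18048 CPM in type 1 dendritic cells. Of 36 lectin and Fc receptor genes, 14 were higher and 3 lower than in type 1 dendritic cells, 22 and 2 than in mature dendritic cells, and 9 and 13 than in monocytes. Of 18 chemokine genes, 8 were higher and 1 lower than in type 1 dendritic cells. Ccl17, a ligand of CCR4, stood at 1002 and 632 CPM against 232 and 161 CPM in type 1 dendritic cells (2.02 ± 0.39, edgeR adjusted p = 0.0105) and 617 and 1101 CPM in mature dendritic cells (-0.16 ± 0.38, adjusted p = 0.827). S100a4 stood at 2034 and 1886 CPM against 74.8 and 249 CPM in type 1 dendritic cells.

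The 99 cells were not alike. Per cell, Cd209a ran from 0.525 to 31.6 CP10K in the control (median 5.82) and from 0.317 to 45.2 CP10K in the knockout library (median 6.14). Ccl17 had a UMI in 12 of 28 and 27 of 71 cells, and 1 control cell held 60.8% of the control UMIs of this gene, the top knockout cell 23.4%. A UMI of the monocyte gene Ly6c2 was found in 2 of 28 and 20 of 71 cells. In the knockout library the 20 cells with it had 422 CPM of Mgl2 and 38 CPM of Ccl17, and the 51 without it 1264 and 826 CPM. Ccr2 went the other way, 988 CPM with Ly6c2 and 406 CPM without. The median depth of these cells was 13939 and 16620 UMIs.

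A second division followed Ccr7, the receptor that guides dendritic cells to lymph nodes, which had a UMI in 7 of 28 (25%) and 16 of 71 cells (22.5%). In the knockout library the 16 cells with it had 1569 CPM of Ccl17, 166 CPM of Zbtb46, 93.7 CPM of Flt3 and 0 CPM of Ly6c2. The 55 without it had 265, 47.4, 34.3 and 118 CPM in the same order, at a median of 15155 UMIs against 20734 with it. In the control library Zbtb46 ran the same way, 163 CPM in 7 cells with Ccr7 and 34.9 CPM in 21 without. Ccl17 ran the other way there, 772 and 1137 CPM, but this order rests on the top control cell. That cell held 222 UMIs of Ccl17 and no UMI of Ccr7. With that cell left out, the control group without Ccr7 would lie below the group with Ccr7, as in the knockout library. A UMI of the division genes Mki67 or Top2a was found in 6 of 28 (21.4%) and 15 of 71 cells (21.1%). Of other cell cycle genes, Ccnb1 had a UMI in 0 and 1 cells, Cdk1 in 1 and 2 and Birc5 in 1 and 2, but Hmgb2 in 15 and 52. Such counts do not give a share of dividing cells. These splits were made after the levels were seen and have no test.

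**Figure D3:**
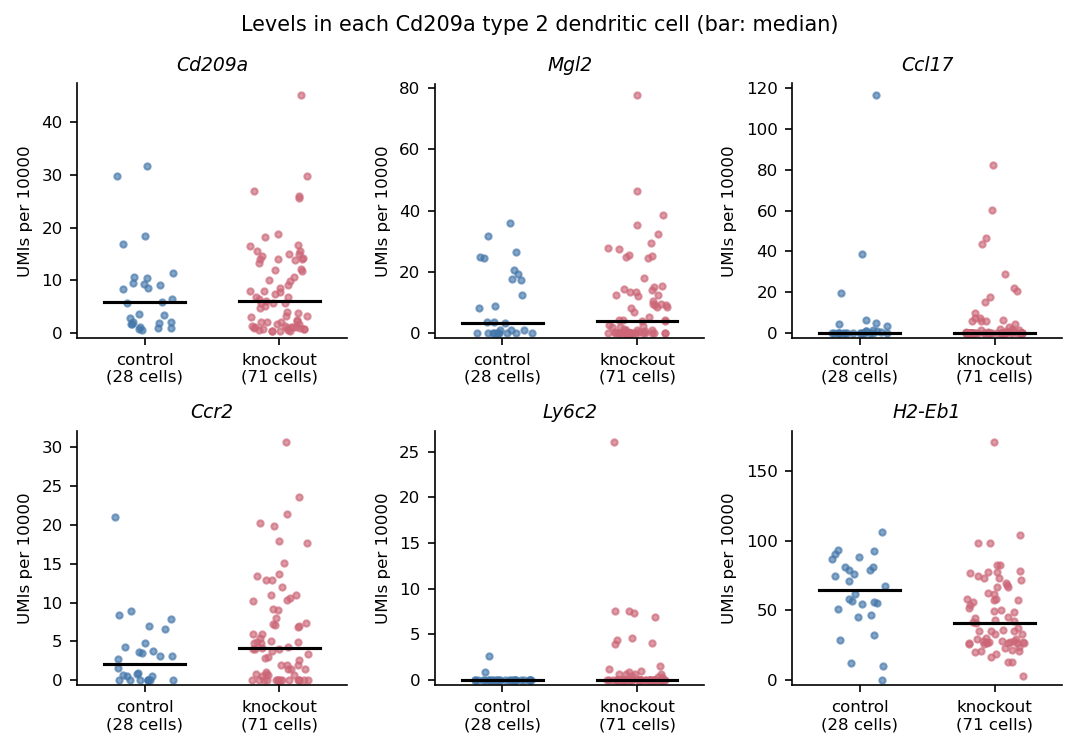
Level per cell (CP10K) of Cd209a, Mgl2, Ccl17, Ccr2, Ly6c2 and H2-Eb1 in 28 control and 71 knockout Cd209a cells, 1 point per cell, the bar at the median. Cd209a medians lie at 5.82 and 6.14 CP10K, while Ly6c2 and Ccl17 are at 0 in most cells of both libraries.

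Between the libraries, 4489 genes with at least 50 UMIs in the Cd209a cells were described. At least 1.5-fold higher in the knockout cells were 720 (16.0%) and at least 1.5-fold lower 254 (5.66%), 974 in all (21.7%), with a median log2 ratio of 0.11 over all genes. The knockout sum is the deeper, so a gene that is high there meets the minimum more easily. With a minimum on the mean of the libraries instead (40 CPM, an alternative chosen after seeing the data), 483 were higher and 249 lower of 3833 genes. The interval lay wholly above 0 for 596 genes and wholly below 0 for 363, genes within 1.5-fold included. Of the 720 higher and 254 lower genes, 411 and 180 had an interval that excludes 0. Calls by list below follow the fold alone, so some genes named there have intervals that include 0, among them Itgav and Slc16a3. The shares over all genes, 16.0% and 5.66%, stand beside every list count below.

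**Figure D4:**
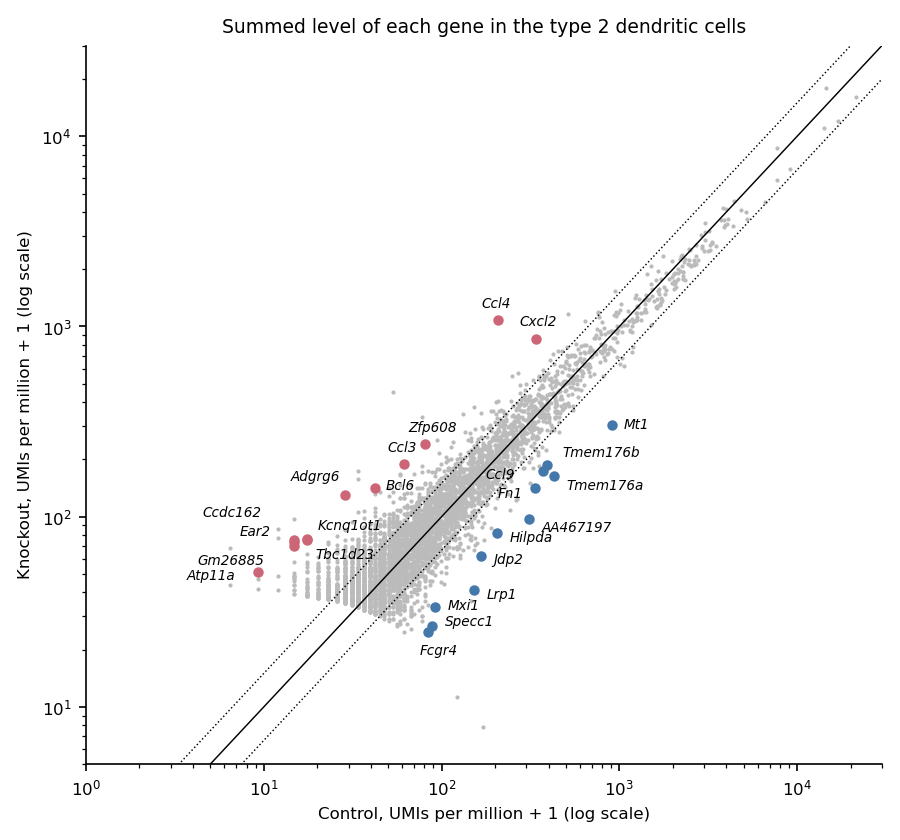
Level in control (horizontal) and knockout Cd209a cells (vertical), CPM + 1 on log axes, for the 4489 genes described, with the 24 genes of largest bound labelled; dotted lines mark 1.5-fold. More genes lie above the upper line (720) than below the lower line (254).

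Chemokine genes were among the genes most above the control level. Ccl4 stood at 206 CPM in the control and 1075 CPM in the knockout cells, a log2 ratio of 2.38 (2.05 to 2.74). It had a UMI in 10 of 28 and 40 of 71 cells, and in 33.1% and 27.3% of T cells, which are known to make it. After thinning each cell to 2000 UMIs the shares were 11.5% and 31.4% of the Cd209a cells and 19.7% and 15.4% of T cells. In the rest of each library it stood at 201 and 267 CPM. By class, Ccl4 stood at 688 and 726 CPM in type 1 dendritic cells and 86.1 and 107 CPM in mature dendritic cells. In monocytes it stood at 974 and 882 CPM and in C1q macrophages at 964 and 1035 CPM. Ccl3, its neighbour on chromosome 11, stood at 60.4 and 188 CPM (1.64, 1.00 to 2.34). Cxcl2, a neutrophil attractant, stood at 340.4 and 858 CPM (1.33, 1.06 to 1.62) and in the rest of the libraries at 442 and 356 CPM. It had a UMI in 46.4% and 39.4% of the Cd209a cells, and its log2 ratio turned to -0.57 in cells thinned to 2000 UMIs. Ccl9, also on chromosome 11 (chr11:83572919-83578636, with Ccl4 at chr11:83662584-83664683), was lower in the knockout cells, at 373 and 173 CPM (-1.11, -1.43 to -0.79).

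Of 13 chemokine genes described, 8 were higher and 3 lower (61.5% and 23.1%), with a median of 1.33, and only Cxcl9 (148 and 208 CPM) and Cxcl16 (329 and 243 CPM) lay within 1.5-fold. Several rest on few cells. Ccl22 stood at 32.9 and 174 CPM, with 60.8% of the knockout UMIs in 1 cell, Ccl24 at 13.7 and 96.1 CPM with 48.7%, Ccl2 at 32.9 and 157 CPM with 58.2%, and Cxcl10 at 76.9 and 335 CPM with 28.2%. Ccl22 turned to -0.055 in thinned cells and Ccl24 to -1.41 with 6 genes of other cell types also at 0. Ccl6 was lower, at 382 and 185 CPM (-1.04, -1.35 to -0.72). Ccl17 was lower in the sum, at 1002 and 632 CPM (-0.66, -0.85 to -0.48), a direction that 1 control cell sets: without the top cell of each library its log2 ratio was 0.30.

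The other genes with the largest bound above 0 included a repressor, a zinc finger gene and an adhesion receptor gene. Bcl6, a transcriptional repressor that dendritic cells are known to use, stood at 41.2 and 140.4 CPM (1.77, 1.01 to 2.64) and had a UMI in 7 of 28 and 40 of 71 cells, and in type 1 dendritic cells it stood at 327 and 306 CPM. Zfp608, a zinc finger gene, stood at 79.6 and 239.9 CPM (1.59, 1.04 to 2.2), with a UMI in 10 of 28 and 52 of 71 cells, while the rest of the libraries had 95.3 and 89.7 CPM. Adgrg6, an adhesion receptor, stood at 27.5 and 128 CPM (2.23, 1.31 to 3.32). Ear2, Ccdc162, Gm26885, Kcnq1ot1, Atp11a and Tbc1d23 had log2 ratios from 2.17 to 2.61, each from a control level of at most 16.5 CPM. Adgrg6, Gm26885 and Atp11a turned to a lower value when the rule was applied to cells thinned to 2000 UMIs.

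Of the genes with the largest bound below 0, Mt1, a metallothionein that binds zinc and copper, stood at 903 and 304 CPM (-1.57, -1.79 to -1.35). It was also lower in the rest of the library, at 959.7 and 382 CPM, and in T cells, at 751 and 322 CPM, while C1q macrophages had 961 and 886 CPM and monocytes 477 and 409 CPM. Also lower in the Cd209a cells and in the rest of the library were Hilpda, a lipid droplet protein of the hypoxia response, at 203 and 80.8 CPM (-1.33) with 89.1 and 59.4 CPM in the rest, and Fn1, fibronectin, at 335 and 141 CPM (-1.25) with 1826 and 1175 CPM. Not every class followed: type 1 dendritic cells had 28.1 and 39.6 CPM of Hilpda and 28.1 and 69.0 CPM of Fn1, and C1q macrophages 1648 and 1703 CPM of Fn1. Tmem176a and Tmem176b, adjacent membrane protein genes on chromosome 6 (chr6:48840919-48847071 and chr6:48833818-48841496), stood at 428 and 163 CPM and at 393 and 185 CPM, with 193 and 126 CPM and 401 and 215 CPM in the rest. Type 1 dendritic cells, monocytes and T cells were also lower for both genes. C1q macrophages were higher, at 42.1 and 108 CPM of Tmem176a and 63.0 and 144 CPM of Tmem176b. Mature dendritic cells were higher for Tmem176a (342 and 396 CPM) and lower for Tmem176b (483 and 379 CPM). Lrp1, a scavenger receptor, stood at 151 and 39.98 CPM (-1.92, but 0.68 in cells thinned to 2000 UMIs), Fcgr4, an activating Fc receptor, at 82.4 and 23.8 CPM (-1.79) and AA467197 at 310.2 and 96.1 CPM (-1.69). Specc1, Jdp2 and Mxi1 had ratios of -1.78, -1.43 and -1.49.

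Of 14 type 2 markers described, 1 was higher and 3 lower (7.14% and 21.4%, beside 16.0% and 5.66% of all genes), with a median of -0.29 against 0.11 for all genes. Over all alternatives this median ran from -0.36 to 0.36, so its sign is not settled. The log2 ratio ran from -0.25 to 0.57 for Mgl2 and from -0.27 to 0.57 for Clec10a. Mgl2 had a log2 ratio of -0.18 (-0.34 to -0.02), Clec10a of -0.22 (-0.55 to 0.12), Irf4 of -0.11 (-0.60 to 0.42) and Sirpa of 0.21 (-0.14 to 0.57). Tnip3, an inhibitor of NF-kB signalling, was higher (406 and 663 CPM), and Itgax, which encodes CD11c (151 and 97.8 CPM), Plet1 (351 and 183 CPM) and Ccl17 were lower. Of 18 shared dendritic cell genes, Cd24a (52.2 and 102 CPM) and Irf8 (93.3 and 149.7 CPM) were higher and 0 were lower (median 0.05). Cd209e was higher, at 65.9 and 132 CPM (1.00, 0.37 to 1.69), while Cd209d, at 329 and 299 CPM, was not (-0.14). Of 47 transcription factors, 6 were higher and 4 lower (12.8% and 8.51%, median 0.02), the former with Notch2 (90.6 and 171 CPM), a receptor that the type 2 branch is known to need and whose log2 ratio turned to -0.44 with 6 genes of other cell types also at 0, and Etv6 (760.4 and 1196 CPM), the latter with Cebpb (236 and 130.2 CPM) and Nr4a1 (458 and 279 CPM).

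Monocyte genes lay above the median of all genes. Of 14 described, 6 were higher and 2 lower (42.9% and 14.3%), with a median of 0.56 against 0.11 for all genes. Ccr2 stood at 247 and 549.6 CPM (1.15, 0.83 to 1.49) and had a UMI in 20 of 28 and 56 of 71 cells, but its log2 ratio was -0.019 in cells thinned to 2000 UMIs. Ly6c2 stood at 11 and 85.1 CPM (2.95, 1.55 to 4.86), 1 knockout cell holding 42% of its UMIs there. After thinning to 2000 UMIs its share of cells was 0% and 12.9%, against 7.14% and 28.2% unthinned. Plac8 (769 and 1126 CPM, 0.55) and Ms4a4c (428 and 632 CPM, 0.56) lay within 1.5-fold, Csf1r (98.8 and 151 CPM) and Ly6a (35.7 and 106 CPM) past it, and Fn1 and Nr4a1 were lower. The summed list moved less, from 3945 to 4524 CPM (0.20, 0.11 to 0.28), and Lyz2, its largest member, stood at 1145 and 953 CPM.

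The MHC class II genes of highest level stood lower in the knockout cells by less than 1.5-fold. H2-Eb1 stood at 6624 CPM in the control and 4523 CPM in the knockout cells (-0.55, -0.62 to -0.48), with medians per cell of 64.7 and 41.1 CP10K. In type 1 dendritic cells it stood at 5219 and 5243 CPM, and in the rest of the libraries at 532 and 662 CPM. Cd74, the invariant chain, stood at 16949 and 12015 CPM (-0.50, -0.54 to -0.45) in the Cd209a cells and at 12092 and 11929 CPM in type 1 dendritic cells. The rule genes H2-Ab1, at 7657 and 5855 CPM, and H2-Aa, at 9128 and 6694 CPM, are given as description. Of 14 MHC class II genes described, 1 was higher and 1 lower (median -0.16), H2-Ob, a chain of the H2-O modulator of peptide loading, being the higher (27.5 and 43.4 CPM, 0.66, with an interval that includes 0) and Lgmn, a processing protease, the lower (209 and 133 CPM), while the peptide-loading genes H2-DMa (804 and 747 CPM) and H2-DMb1 (769 and 869 CPM) and the regulator Ciita (305 and 294 CPM) had intervals that include 0. Of 24 MHC class I genes, 2 were higher and 0 lower (8.33% and 0%, beside 16.0% and 5.66% of all genes, median 0.14), and B2m (1406 and 1461 CPM) and H2-K1 (656 and 627 CPM) lay close to equal.

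Of 20 costimulation and checkpoint genes, 5 were higher and 0 lower (25% and 0%, beside 16.0% and 5.66% of all genes, median 0.31). Among the 5, Cd274 and Pdcd1lg2, which encode the PD-1 ligands, stood at 244 and 402 CPM (0.72, 0.39 to 1.06) and at 181 and 293 CPM (0.69, 0.31 to 1.09). Cd200r1 stood at 52.2 and 97.8 CPM, Pirb at 71.4 and 119 CPM and Havcr2, which encodes TIM-3, at 107 and 175 CPM. The costimulatory genes Cd80 (393 and 410.0 CPM), Cd86 (1008 and 1225 CPM) and Cd40 (165 and 177 CPM) lay within 1.5-fold, as did Cd47 (609 and 461 CPM), the signal read by SIRPA. Pdcd1lg2 turned to a lower value in cells thinned to 2000 UMIs.

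Of 49 interferon response genes, 10 were higher and 4 lower (20.4% and 8.16%, median 0.14), close to the share over all genes. Oasl1 (57.7 and 167 CPM, 1.53), Gbp4 (24.7 and 64.7 CPM, 1.39) and Irgm1 (27.5 and 61.3 CPM, 1.16) were higher, and Ifit2 (87.8 and 45.1 CPM, -0.96) and Ifit1 (82.4 and 51 CPM, -0.69) lower. Isg15 (283 and 269 CPM) and Irf7 (206 and 179.5 CPM) lay close to equal. Of 10 cytokine genes, Osm, oncostatin M, was higher (68.6 and 167 CPM, 1.28) and Areg, an EGF receptor ligand, lower (170.2 and 6.81 CPM, -4.64), with UMIs in 5 and 3 cells and 62.9% of the control UMIs in 1 cell. Il1b (1504 and 2066 CPM, 0.46, 0.32 to 0.59) lay within 1.5-fold with its interval above 0.

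Uptake and sensing genes went both ways. Of 24 lectin and Fc receptor genes, 4 were higher and 4 lower (16.7% each, beside 16.0% and 5.66% of all genes, median -0.13). Among them, Cd300lf (49.4 and 128 CPM), a phospholipid-binding receptor, and Ly75 (11 and 47.6 CPM), DEC-205, were higher, and Fcgr4, Clec4b1 (104 and 49.3 CPM) and Fcgrt (349 and 209 CPM), the neonatal Fc receptor, lower. With the 6 genes at 0, Cd300lf turned to -0.15 and Fcgrt to 0.38. Of 19 sensor genes, 4 were higher and 1 lower (21.1% and 5.26%, close to the share over all genes, median 0.08), with Casp4 (38.4 and 73.2 CPM), the caspase that senses bacterial lipopolysaccharide, and Pycard (151 and 235 CPM), the inflammasome adaptor, among the higher. Of 31 receptor genes, Ccr2, Csf1r and Il6st (30.2 and 48.5 CPM) were higher and Ccrl2 (316 and 202 CPM) and Tnfrsf11a (46.7 and 28.9 CPM) lower (9.68% and 6.45%, median 0.08). The intervals of Il6st and Tnfrsf11a include 0.

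Hypoxia and glycolysis genes leaned lower. Of 20 described, 1 was higher and 6 lower (5.00% and 30.0%), with a median of -0.34. Beside Hilpda the lower ones were the glucose transporter gene Slc2a1 (85.1 and 45.1 CPM, -0.92), Tpi1 (288 and 180.4 CPM, -0.68), a glycolytic enzyme, the oxidase gene Ero1l (54.9 and 31.5 CPM), the lactate carrier gene Slc16a3 (60.4 and 39.1 CPM) and P4ha1 (82.4 and 53.6 CPM). Gapdh (1375 and 1193 CPM), Ldha (533 and 508 CPM) and Pgk1 (219.6 and 213 CPM) lay within 1.5-fold, and Hif1a itself stood at 291 and 390.5 CPM (0.42, 0.12 to 0.74). In cells thinned to 2000 UMIs Slc2a1 and Tpi1 turned to a higher value, and the median of the list over all alternatives ran from -0.39 to 0.23.

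Of 22 lipid and uptake genes, 3 were higher and 6 lower (13.6% and 27.3%, median -0.09). The lower ones were Cd63 (82.4 and 33.2 CPM, -1.31), Fabp5 (154 and 69.8 CPM, -1.14), Apoe (264 and 123 CPM, -1.11), the cathepsin gene Ctsd (154 and 76.6 CPM, -1.01), Cd9 (126 and 70.6 CPM) and Grn (286 and 179.5 CPM). Higher were, among others, Scd2 (74.1 and 122 CPM) and Cd68 (129 and 201 CPM). Apoe and Fabp5 turned to a higher value in cells thinned to 2000 UMIs. Of 17 adhesion genes, 1 was higher and 4 lower (5.88% and 23.5%, median -0.00): Cd44, the hyaluronan receptor, stood at 513 and 1165 CPM (1.18, 0.96 to 1.41), while Itgax, Itgav (49.4 and 32.3 CPM), Cd9 and Ilk (87.8 and 57 CPM), which encodes a protein bound by integrin tails, were lower. Tln1, talin, stood at 395 and 383 CPM.

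**Figure D5:**
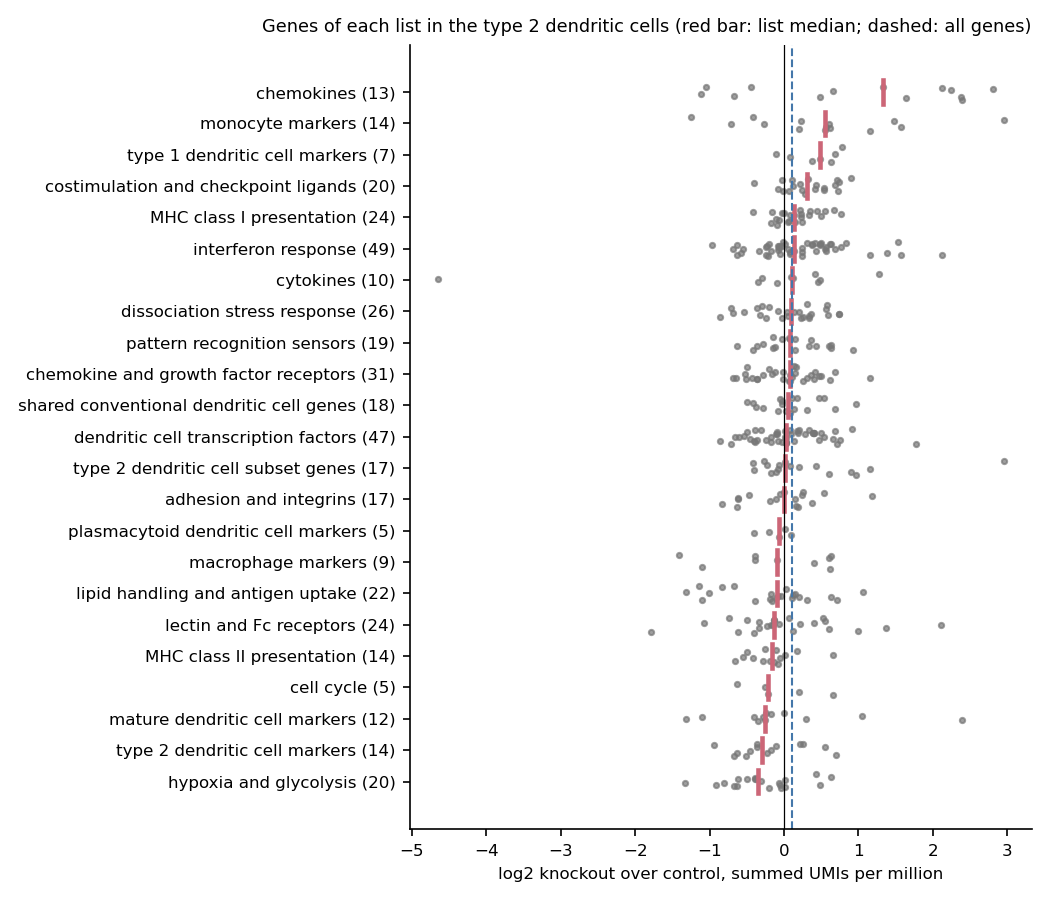
Log2 ratio of level in Cd209a cells, knockout over control, for each described gene of each list (1 point per gene, red bar at the list's median); the dashed line marks the median of all genes, 0.11. Chemokine genes have the highest median shown among lists of more than 10 genes (1.33), and hypoxia and glycolysis genes the lowest (-0.34).

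Genes that respond to tissue digestion were measured beside these. Of 26 described, 3 were higher and 3 lower (11.5% each), with a median of 0.09. Fos stood at 1018 and 1310 CPM, Jun at 631 and 738 CPM, Hspa1a at 126 and 212 CPM and Btg2 at 1180 and 737 CPM. The part of digestion in the differences above was not tested.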

How the data were processed

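Single-cell RNA was measured in 2 libraries, control and knockout, 1 per group. The deposited matrix holds UMI counts per gene and barcode for both libraries. The authors made it with Cell Ranger 2.1.1 on mm10, per the submitters' processing notes, but version 6.0.1 stands in the header of the matrix. Cell calling preceded deposit, and the labels do not say whether depth was equalised. Barcode suffix 1 was read as the control and suffix 2 as the knockout library from the library numbers in the labels alone.

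From these counts, cells were kept and chosen by the rule in the text, with no doublet caller in the rule (Scrublet in scanpy 1.11.5 marked 203 and 204 of all kept cells). Members and gene lists were chosen with earlier results of these data known. UMIs were summed per library and class and scaled to 1000000 (CPM). Shares have exact Clopper-Pearson intervals and ratios conditional binomial intervals, all 95% and for counting error only. A gene concentrated in 1 cell has a wider error than its interval. A class at 0 was compared as a bound against 3 counts over the class.

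Classes were compared with edgeR 4.0.16 (quasi-likelihood, TMM, filterByExpr, terms for class and library) in R 4.3.3, with Benjamini-Hochberg adjustment. Values after ± are SE. T cells had at least 2 UMIs of Cd3e. Keratin-marked cells were chosen by a minimum on the summed CP10K of Krt8, Krt18 and Epcam, with no UMI of Ptprc, so a cell could enter by any of these genes. Between libraries the named genes are the 12 higher and 12 lower with the bound farthest from 0, among genes of at least 2-fold and with at most 25% of their UMIs in 1 cell, and up to 5 per list with the highest and lowest ratios and levels. Others were chosen after their values were seen. Between classes, the text names genes past the threshold against all 3 classes and list members. Both calculations were tested on simulated counts. Alternatives were other cell limits, thinning each cell to 2000 UMIs, other scalings, minimums and weights, DESeq2 1.42.0 and other designs. Gene positions are from GENCODE vM21, which held 99.6% of the identifiers, and promoters from RefSeq, found for 4 of 5 genes looked up. Scripts ran in Python 3.11.15 with matplotlib 3.10.9, pandas 2.3.3, scipy 1.17.1 and numpy 2.4.6.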

Additional observations from a re-analysis of the deposited data

How the results depend on the processing

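No paired analysis was possible because each group has 1 library. The log2 ratio of the Cd209a cells' share, 1.5, lay between 0.70 and 1.81 over all alternatives, at 0.70 of cells within the MHC class II and C1q limits. Against 720 genes higher and 254 lower, the counts were 358 higher when 6 genes of other cell types also had to be at 0 (16 and 31 cells), 52 and 36 in cells thinned to 2000 UMIs (453 genes), 442 lower with a mean over cells, 1440 and 645 at a minimum of 20 UMIs, 324 and 106 at 100 UMIs, and 1189 and 143 without each gene's top cell in each library, which by construction takes more from the 28 control cells. The share of higher among higher and lower genes was 73.9%, and 57.4%, 59.1%, 65.7% and 89.3% with the 6 genes, thinning, the mean over cells and no top cell, and 66.0% with the 40 CPM minimum. Among genes past 1.5-fold, direction turned in thinned cells for Adgrg6 (-1.64), Cxcl2 (-0.57), Gm26885 (-1.23), Atp11a (-3.23), Lrp1 (0.68), Ccl17 (0.73), Ccl22 (-0.055), Ccr2 (-0.019), Pdcd1lg2 (-0.32), Slc2a1 (1.17), Tpi1 (0.076), Fcgrt (0.40), Fabp5 (0.17) and Apoe (0.94). It turned with the 6 genes at 0 for Notch2 (-0.44), Ccl24 (-1.41), Fcgrt (0.38), Cd300lf (-0.15) and Fabp5 (0.25), with the mean over cells for Ccl24 (-0.33), and for Ccl17 with at least 2 Cd209a UMIs (0.30) and without the top cell (0.30). Some genes within 1.5-fold also changed sign in some alternatives, among them Mgl2 (up to 0.57), Clec10a (up to 0.57) and Cxcl9 (down to -1.18). The cause was not tested. Class counts were 480 higher and 434 lower against type 1 and 802 higher against mature dendritic cells with no low count filter, where more genes are tested, 435 lower against type 1 dendritic cells with only the 2 classes fitted, and 339 lower against monocytes with DESeq2. Of the 22 genes higher than all 3 classes, DESeq2 kept 10, and the other alternatives 20 to 22. Without the library term all 3 class comparisons kept their counts within 1.5 times. With 1 library per group, depth limits each gene to counting error, and no alternative measures the spread between tumours.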
